A study of Mus musculus with 12 samples.

Results

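Ddx4, Piwil1, Piwil2, Piwil4, Mov10l1, Mov10, Tdrd1, Tdrd9, Tdrkh and Mael are the piRNA pathway genes described here. They were chosen by name, as known parts of the pathway, and all 10 are among the 23230 genes of the mouse oocyte expression table. RNA was sequenced by Smart-seq2, which copies RNA primed on its poly(A) tail, from WT and Zar1/2-null oocytes at 3 stages. Each of the 6 groups holds 2 libraries, made from 10 pooled oocytes each. Growing oocytes came from females of 13.5 days by the labels (the study's methods give a younger age), fully grown germinal vesicle (GV) oocytes from females of 21 days at 44 h after PMSG, a gonadotropin that stimulates follicle growth, and MII oocytes were collected 16 h after hCG, which triggers ovulation. All mice had a mixed C57BL6/ICR background. The null females lacked Zar1 and Zar2 (listed as Zar1l) in all cells, through CRISPR/Cas9 deletions close to the start codons. The null oocytes called MII were defined by the time after hCG. The study describes them as held up in the first meiotic division, whether or not a polar body was seen, so that for them MII names the time of collection. The labels do not state that the 2 libraries of a group came from different females, so p-values measure the spread between libraries, which may be technical.

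PIWI-interacting RNAs (piRNAs) are small RNAs of germ cells that guide PIWI proteins to transposon transcripts, which are then cut or silenced. Precursor RNAs are brought to the processing machinery by RNA helicases, are cut and trimmed at the surface of mitochondria, and are held in cytoplasmic germ granules by Tudor domain proteins, which bind methylated arginines of PIWI proteins. The pathway is needed for male fertility in mice. Females that lack single pathway genes are usually fertile, and mouse oocytes also silence transposons through endogenous siRNAs.

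The deposited values were FPKM, a fragment count scaled to transcript length and to library size, that the authors had multiplied by a factor for each library from ERCC spike-in RNAs, which are added in equal amount to each lysate. The recovered factors were 1 in the WT growing libraries, 0.862 and 0.779 in Zar1/2-null growing, 0.836 and 0.697 in WT GV, 0.533 and 0.583 in Zar1/2-null GV, 0.225 and 0.228 in WT MII and 0.283 and 0.252 in Zar1/2-null MII oocytes. Both WT growing libraries have a factor of 1, though the study lists unlike ERCC shares for them. It lists equal shares for the 2 WT GV libraries, whose factors differ. The factors therefore do not put libraries 1 and 2 of a group on a common ERCC scale, and the spread between them includes this. The main fit does not pair libraries by replicate number. Sequencing depth varied little, from 0.914 to 1.24 times that of the first WT growing library. Zar1l fell from 639 and 644 FPKM to 17.5 and 13.2 FPKM in growing oocytes. Zar1 was still at 407 and 460 FPKM in the null growing oocytes against 603 and 725 FPKM in WT, and since its allele is a small deletion followed by a stop codon, its level does not check the label. All 10 oocyte markers examined were detected in every group. The 12 granulosa and cumulus markers summed to at most 32.5 FPKM in any library. In WT growing oocytes the highest means among them were Cyp19a1 (17.9 FPKM), Nr5a2 (5.91 FPKM), Inha (2.75 FPKM) and Kitl (2.44 FPKM). Amh and Ptx3 were at 0 in that group. The 6 immune and the 6 epithelial and stromal markers summed to at most 3.21 and 1.36 FPKM in any library.

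The members fell into an abundant and a scarce group. In WT growing oocytes Mael had the highest level, with 127 and 119 FPKM, followed by Ddx4 with 76.7 and 66.0 FPKM, Tdrd1 with 55.9 and 63.5 FPKM and Tdrkh with 40.9 and 37.2 FPKM. For each of these 4 genes both libraries lay above both libraries of the next gene in the order. The Mael mean lay above those of 91.2% of the 11502 genes that reached 1 FPKM in at least 1 library, and the Tdrkh mean above those of 77.9%. Tdrd9 (mean 4.63 FPKM) and Piwil1 (4.57 FPKM) came next and overlapped. Mov10l1 had a mean of 2.42 FPKM, and Mov10 (1.34 FPKM) and Piwil2 (0.857 FPKM) overlapped below it. Piwil4 was lowest in WT growing oocytes and never exceeded 0.249 FPKM in any library, so that it was not tested. FPKM is a value per length, which allows these levels to be set side by side. Priming was on the poly(A) tail, so between genes a shorter tail and less RNA cannot be told apart.

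**Figure D1:**
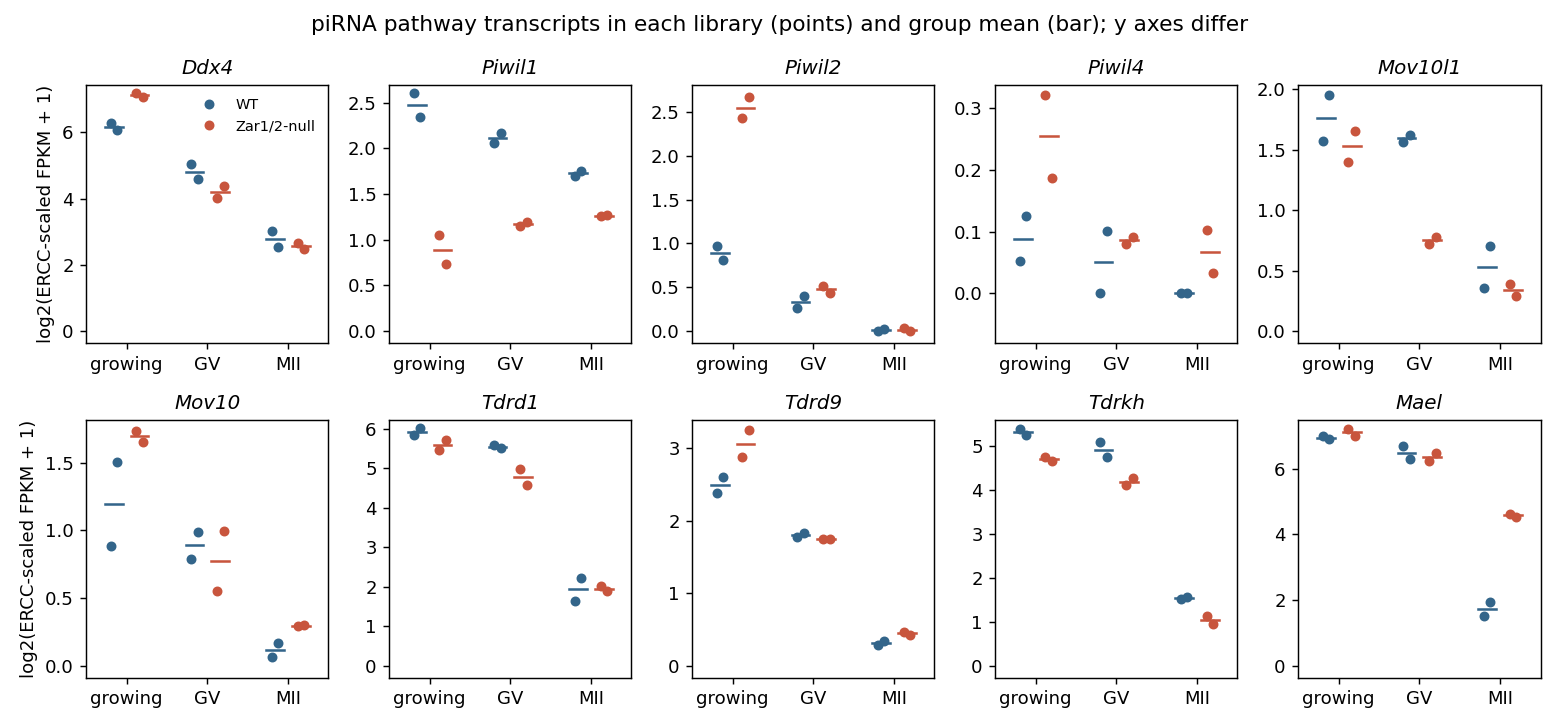
Level of each member gene in every library, as log2(ERCC-scaled FPKM + 1) on the y axis, by stage on the x axis; points are libraries and bars are means over the 2 libraries of a group. The 2 null MII libraries of Mael sit at 23.8 and 22.3 FPKM, above WT at 1.86 and 2.81 FPKM, and the null growing libraries lie above WT for Piwil2 and below WT for Piwil1.

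The scarce members rest on few reads. FPKM values of a gene that were whole multiples of the value of 1 read allowed the reads to be recovered for 8 members, to within 0.006283 of a read, but not for Ddx4 and Tdrd1. Piwil4 had between 0 and 8 reads in a library and 0 in both WT MII libraries, which allows up to 3.69 reads by the exact Poisson interval. Piwil2 had 51 and 48 reads in WT growing oocytes, 272 and 453 in null growing oocytes, and at most 5 in any MII library. Piwil1 had 44 to 514 reads, Tdrkh 114 to 1234 and Mael 114 to 3049. Intervals from these reads treat every read as independent and leave out the spread between libraries. Reads copied by PCR are not independent molecules, so the intervals can be too narrow even for counting error.

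The 3′ ends of the transcripts are shown because ZAR1 and ZAR2 bind RNA, and because sequences there direct cytoplasmic polyadenylation, the lengthening of the poly(A) tail in maturing oocytes. The windows were read from the mm9 genome with GENCODE transcripts, which are not the UCSC models the authors counted with, and run 5′ to 3′ on the strand of the transcript, all within the 3′ UTR and its last exon. Capitals mark the poly(A) signal (AATAAA or ATTAAA) or, in the first line, a cytoplasmic polyadenylation element (CPE, searched on the transcript strand as TTTTAT or TTTTAAT).
Ddx4, CPE, chr13:113388579-113388608, minus strand: acaaatgtttgcTTTTATaatatacagatt
Ddx4, poly(A) signal, chr13:113388552-113388581, minus strand: attttccttgcaAATAAAagatgaaacaca
Piwil1, poly(A) signal, chr5:129261315-129261344, plus strand: ctggcacagctcAATAAAgtttctgtctca
Piwil2, poly(A) signal, chr14:70772289-70772318, minus strand: cctgtggtgtaaAATAAAaacaatgtatgt
Tdrd1, poly(A) signal, chr19:56944466-56944495, plus strand: cctgattcaggcAATAAAgccacttgtttt
Tdrkh, poly(A) signal, chr3:94236523-94236552, plus strand: ataaaattttgaAATAAAatatggtacata
Mael, poly(A) signal, chr1:168131525-168131554, minus strand: actatttcatagATTAAAagtaattgtggt

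Ddx4 was the member with a CPE in the last 100 bases of its 3′ UTR, where it starts 56 bases before the end, and the signal starts 29 bases before it. Among 10609 genes with a 3′ UTR, 19.4% held a CPE in that stretch. Anywhere in the 3′ UTR, Ddx4 and Piwil2 held 2 CPEs each and Piwil1 and Tdrkh 1 each, against 57.3% of genes with at least 1. A poly(A) signal stood in the last 50 bases of every member except Mov10, and of 76.8% of all genes. Mael had the shortest 3′ UTR of the members, with 163 bases, against a median of 824 bases over all genes. Those of Tdrkh and Piwil2 were longest, with 1858 and 1800 bases. A match of letters does not show that a factor binds there.

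In growing oocytes, Piwil2, Ddx4 and Tdrd9 were higher and Piwil1 and Tdrkh were lower in the Zar1/2-null libraries than in WT. Of the 9 members tested with limma, 3 were higher and 2 lower, while 10.6% of the 11502 genes tested were higher and 24.4% lower. The median log2 fold change of the members was 0.16, against −0.16 over all genes tested. With the factors divided out, 1711 genes were higher and 1412 lower, in place of 1224 and 2801, and the median over all genes was 0.08.

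Piwil2 (chr14:70772287-70828901), a PIWI protein that cuts transposon transcripts, measured 0.964 and 0.751 FPKM in WT and 4.38 and 5.39 FPKM in null growing oocytes. The libraries of the 2 genotypes were far apart, with a ratio of means of 5.70 and a log2 fold change of 1.66 ± 0.13 (SE, adjusted p = 7.51e-06, limma on log2(FPKM + 1)). On this scale the fold change of a low gene is smaller than the ratio of means. Piwil2 reached 1 FPKM in the null growing libraries alone, so it entered the test only through the group in which it was higher. Its p-values are conditional on that. With no such filter, 3 members were still higher in null growing oocytes. Both WT libraries held 99 Piwil2 reads together (95% exact Poisson interval 80.5 to 121) and both null libraries 725 (673 to 780).

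Piwil1 (chr5:129242121-129261349), the PIWI protein of late male germ cells, went the other way. It measured 5.07 and 4.08 FPKM in WT and 1.07 and 0.659 FPKM in null growing oocytes, a mean 5.28-fold lower in the null (log2 fold change −1.58 ± 0.14, adjusted p = 2.44e-05, limma). The WT libraries held 420 reads together (381 to 462) and the null libraries 97 (78.7 to 118). Piwil4, the nuclear PIWI protein, had 4 reads over both WT libraries (1.09 to 10.2) and 14 over both null libraries (7.65 to 23.5), intervals that overlap. In MII oocytes it had 0 reads over both WT libraries (0 to 3.69) and 10 over both null libraries (4.8 to 18.4). These intervals do not overlap, but they treat every read as independent and leave out the spread between libraries.

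Ddx4 (chr13:113388541-113442518), the DEAD-box helicase of germ granules also called Vasa, measured 76.7 and 66.0 FPKM in WT and 146 and 133 FPKM in null growing oocytes. Both null libraries lay above both WT libraries, with a ratio of means of 1.95 (log2 fold change 0.96 ± 0.21, adjusted p = 0.00533, limma). Tdrd9, a helicase with a Tudor domain, measured 4.21 and 5.04 FPKM in WT and 6.35 and 8.46 FPKM in null growing oocytes (log2 fold change 0.57 ± 0.14, adjusted p = 0.010). Tdrkh, a Tudor protein that anchors PIWI proteins at mitochondria for trimming, measured 40.9 and 37.2 FPKM in WT and 26.0 and 24.4 FPKM in null oocytes (log2 fold change −0.61 ± 0.15, adjusted p = 0.00955). Tdrkh passed the test with the ERCC factors and not without them (log2 fold change −0.33, adjusted p = 0.0780). Leaving out the first WT library ended the calls of Tdrd9 (0.47, adjusted p = 0.0780) and Tdrkh (−0.54, 0.0695), and so did leaving out the second null library (Tdrd9 0.39, 0.0891, and Tdrkh −0.57, 0.0637).

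The other members were not called in growing oocytes. Mael, which is needed for piRNA-guided transposon silencing in male germ cells, measured 127 and 119 FPKM in WT and 147 and 127 FPKM in the null (adjusted p = 0.550). Tdrd1, a germ granule Tudor protein that binds PIWI proteins, measured 55.9 and 63.5 against 43.1 and 51.8 FPKM (adjusted p = 0.246). Mov10l1, the helicase that feeds precursor RNA into processing, measured 1.97 and 2.87 against 1.63 and 2.16 FPKM. Its broadly expressed relative Mov10 measured 0.846 and 1.83 against 2.32 and 2.15 FPKM (log2 fold change 0.50 ± 0.20, adjusted p = 0.0718), and passed the test once the second WT library was left out (0.81, adjusted p = 0.0113).

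Markers of male germ cells moved with genotype in growing oocytes. The 5 markers summed to 62.0 to 72.2 FPKM in WT and to 204 to 234 FPKM in the null, most of it Ldhc (means 55.5 and 196 FPKM) and Prm2 (10.2 and 20.9 FPKM), while Tnp1 was at 0 in both. Acrv1 of the same list was lower in the null (means 1.10 and 0.775 FPKM). The granulosa and cumulus markers summed to 29.0 to 32.5 FPKM in WT and 14.1 to 22.0 FPKM in the null. Among them Cyp19a1 was lower in the null (means 17.9 and 5.13 FPKM) and Nr5a2 higher (5.91 and 9.83 FPKM). The part of these markers in the differences of Piwil2, Ddx4, Tdrd9, Piwil1 and Tdrkh was not tested. A pool of 10 oocytes does not tell fewer oocytes that carry a transcript apart from less of it in each.

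**Figure D2:**
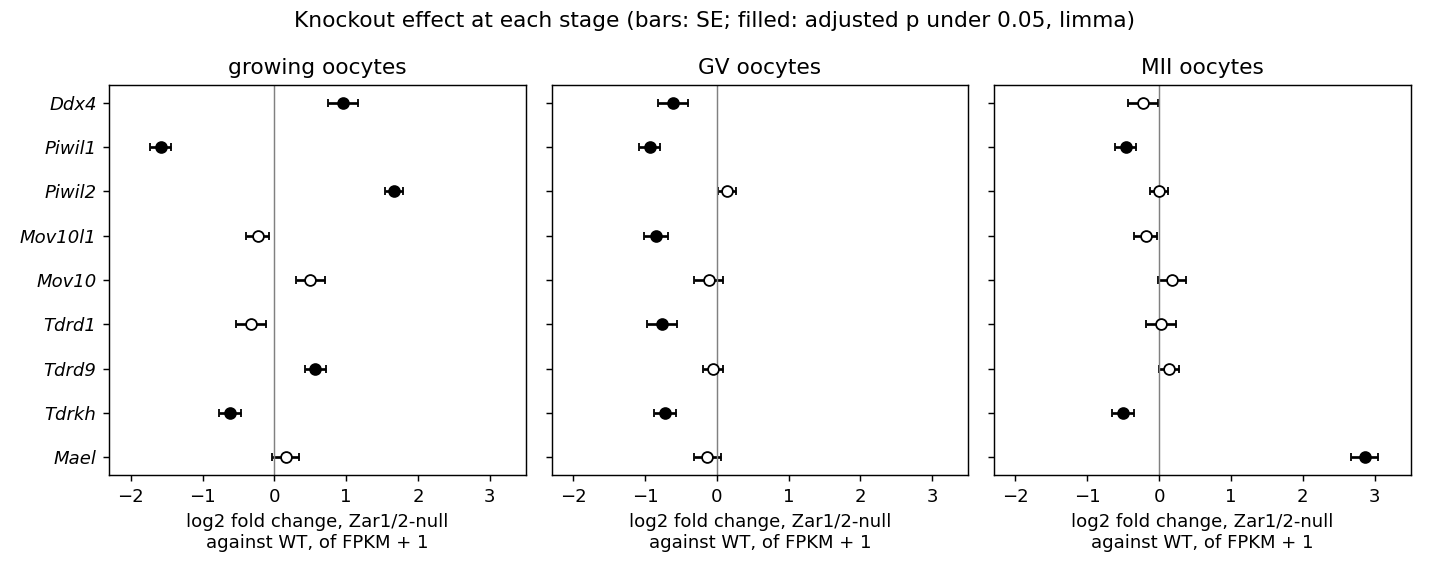
Log2 fold change of FPKM + 1 in Zar1/2-null against WT oocytes for the 9 members tested, in growing, GV and MII oocytes; bars are SE, and filled points passed the threshold (adjusted p under 0.05, limma). Piwil2 at 1.66 and Piwil1 at −1.58 stand apart in growing oocytes, and Mael at 2.86 in MII oocytes.

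In GV oocytes 5 of the 9 members were lower in the null and 0 were higher, with 40.6% of all genes tested lower and 2.83% higher. The member median was −0.61, against −0.38 over all genes (log2 fold change). Without the ERCC factors the median over all genes was −0.03, 1554 genes were lower and 827 higher, in place of 4666 and 325, and 1 of the 5 members, Piwil1, was still called. The male germ cell markers summed to 27.2 to 29.4 FPKM in WT and 46.2 to 48.3 FPKM in the null at this stage, and the granulosa and cumulus markers to 17.2 to 19.4 and 13.6 to 15.5 FPKM; their part in the differences was not tested.

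Piwil1 measured 3.15 and 3.49 FPKM in WT and 1.23 and 1.29 FPKM in null GV oocytes, 2.64-fold lower in the null (log2 fold change −0.94 ± 0.14, adjusted p = 5.40e-04, limma). It was still lower without the ERCC factors (−0.72, adjusted p = 0.0169) and with libraries scaled to an equal median (−0.61, adjusted p = 0.0401). Mov10l1 measured 1.95 and 2.08 FPKM in WT and 0.650 and 0.716 FPKM in the null (log2 fold change −0.84 ± 0.17, adjusted p = 0.00222). The reads of Mov10l1 numbered 239 over both WT libraries (210 to 271) and 106 over both null libraries (86.8 to 128). Without the ERCC factors its change was −0.71 and missed the threshold (adjusted p = 0.0661).

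Tdrkh measured 33.1 and 25.9 FPKM in WT and 16.3 and 18.5 FPKM in null GV oocytes (log2 fold change −0.72 ± 0.15, adjusted p = 0.00329), and −0.29 without the ERCC factors (adjusted p = 0.138). Tdrd1 measured 46.8 and 44.6 FPKM in WT and 30.4 and 23.0 FPKM in the null (−0.77 ± 0.21, adjusted p = 0.0123), and −0.33 without the factors (adjusted p = 0.386). Ddx4 measured 31.8 and 22.9 FPKM in WT and 15.1 and 19.9 FPKM in the null (−0.61 ± 0.21, adjusted p = 0.0384), and −0.18 without the factors (adjusted p = 0.550). With the factors, both null libraries lay below both WT libraries for these 3 genes. The share of all genes that separated in this way was not counted. With the factors divided out, the libraries overlapped for Ddx4 (38.0 and 32.8 FPKM in WT, 28.4 and 34.1 FPKM in the null). They also overlapped for Tdrd1 (56.0 and 64.0 FPKM in WT, 57.0 and 39.4 FPKM in the null). The call of Ddx4 was lost without the first WT GV library (−0.38, adjusted p = 0.278), the first null GV library (−0.42, 0.214) or any of the 4 growing libraries (0.0511 to 0.0524), and that of Tdrd1 without the first WT (−0.73, 0.0757) or the second null GV library (−0.57, 0.0822).

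Mael did not pass the test in GV oocytes, with 102 and 77.3 FPKM in WT and 74.5 and 87.6 FPKM in the null, which overlapped (adjusted p = 0.574). Tdrd9 measured 2.42 and 2.54 FPKM in WT and 2.36 and 2.37 FPKM in the null (adjusted p = 0.795). Piwil2, which was higher in null growing oocytes, measured 0.203 and 0.323 FPKM in WT and 0.433 and 0.349 FPKM in null GV oocytes (adjusted p = 0.383). Mov10 measured 0.723 and 0.988 against 0.469 and 0.991 FPKM.

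In MII oocytes Mael stood apart. It measured 1.86 and 2.81 FPKM in WT and 23.8 and 22.3 FPKM in the null, a ratio of means of 9.87 (log2 fold change 2.86 ± 0.19, adjusted p = 3.87e-07, limma). The WT libraries held 332 Mael reads together (297 to 370) and the null libraries 2882 (2778 to 2989). Without the ERCC factors the log2 fold change was 2.97, and with an equal median 2.90. The rank of Mael among all genes moved from above 63.8% of them in WT to above 90.0% in the null.

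Of the 9 members, 1 was higher and 2 were lower in null MII oocytes, against 21.5% higher and 10.3% lower of all genes. The member median was 0.0023, against 0.06 over all genes (log2 fold change). Unscaled FPKM gave 2831 genes higher and 2694 lower, in place of 2472 and 1183. Piwil1 measured 2.25 and 2.38 FPKM in WT and 1.39 and 1.41 FPKM in the null (log2 fold change −0.47 ± 0.14, adjusted p = 0.0275). Tdrkh measured 1.89 and 1.95 against 1.19 and 0.949 FPKM (−0.50 ± 0.15, adjusted p = 0.0264). The calls of Piwil1 and Tdrkh were lost when any of the 4 MII libraries was left out (Piwil1 −0.50 to −0.44, adjusted p = 0.0855 to 0.123, and Tdrkh −0.58 to −0.42, adjusted p = 0.0556 to 0.161). Both were larger without the ERCC factors (Piwil1 −0.85 and Tdrkh −0.93, adjusted p = 0.00235 and 1.17e-04).

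The other members were low at MII and were not called. Ddx4 measured 7.15 and 4.84 FPKM in WT and 5.30 and 4.54 FPKM in the null (adjusted p = 0.501), and passed the test without the ERCC factors (log2 fold change −0.48, adjusted p = 0.0493). Tdrd1 measured 2.11 and 3.69 against 3.08 and 2.69 FPKM, and Tdrd9 0.219 and 0.267 against 0.387 and 0.344 FPKM. Mov10l1, with 0.279 and 0.626 against 0.311 and 0.220 FPKM, and Mov10, with 0.0470 and 0.122 against 0.226 and 0.232 FPKM, rested on 46 to 139 and 7 to 41 reads a library. Piwil2 was listed at 0 in 1 library of each genotype, which held 4 or 5 reads in the other library. The summed oocyte markers were also higher in the null at this stage, 7150 to 8385 FPKM against 4493 to 5468 FPKM in WT, and male germ cell markers summed to 7.46 to 8.45 FPKM against 0.893 to 1.25 FPKM. Their part in the Mael difference was not tested.

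**Figure D3:**
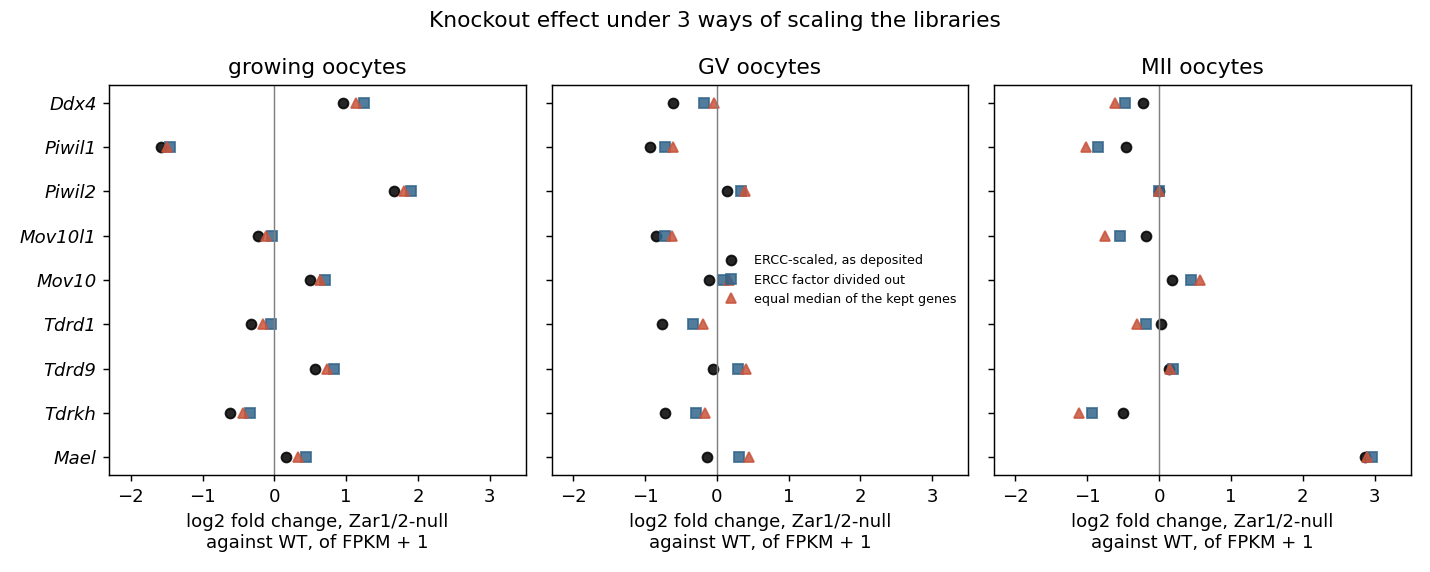
Knockout effect on the 9 members, as log2 fold change of FPKM + 1, with the deposited ERCC scaling (circles), with the factor divided out (squares) and with libraries scaled to an equal median of the kept genes (triangles). Mael at MII and Piwil1 and Piwil2 in growing oocytes stay in place, while in GV oocytes Mov10, Tdrd9 and Mael change sign and Ddx4, Tdrd1 and Tdrkh move toward 0.

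A rule of more than 3-fold, with group means under 1 FPKM set to 1, was applied with no test. The study set values of single samples to 1 FPKM, and with that floor on each library, an alternative added after seeing the data, Piwil1 was 4.41-fold lower and the other called folds were the same. Piwil2 was higher in null growing oocytes (4.88-fold after this floor, a rule met by 0.982% of genes), Piwil1 was lower in them (4.57-fold, met by 3.54%), and Mael was higher in null MII oocytes (9.87-fold, met by 7.49%). No member was more than 3-fold higher or lower in GV oocytes (0.461% and 4.2% of genes were) or lower in MII oocytes (1.32%). The same 3 members were called with the floor on each library, with a floor of 0.1 FPKM, without the ERCC factors and with an equal median.

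During WT growth, from growing to GV oocytes, 3 of the 9 members fell and 0 rose, with 28.7% of all genes lower and 2.77% higher. Unscaled FPKM gave 372 genes lower and 421 higher, in place of 3306 and 319. Ddx4 fell by 1.37 ± 0.21 on the log2 scale (adjusted p = 0.00188, limma), Tdrd9 fell by 0.69 ± 0.14 (adjusted p = 0.00659) and Piwil2 fell by 0.56 ± 0.13 (adjusted p = 0.00975). Without the ERCC factors Tdrd9 (−0.40, adjusted p = 0.221) and Piwil2 (−0.46, adjusted p = 0.141) were no longer called. Tdrd9 was also lost without the second WT growing library (−0.58, adjusted p = 0.0546), Mov10 was called without the first (−0.61, 0.0452), and Tdrkh (−0.57, 0.0311) and Mael (−0.66, 0.0455) were called without the first WT GV library.

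Zar1/2-null growth lowered 8 of the 9 members and raised 0, with 55.9% of all genes lower and 4.76% higher. Unscaled FPKM gave 2455 genes lower and 1646 higher, in place of 6424 and 547, and 4 members were lower and 1, Piwil1, higher. The members no longer called were Mael (−0.20, adjusted p = 0.357), Mov10l1 (−0.57, 0.0964), Tdrd1 (−0.28, 0.402) and Tdrkh, whose direction turned (0.02, 0.936). Ddx4 fell by 2.93 ± 0.21 and Piwil2 by 2.08 ± 0.13 on the log2 scale (adjusted p = 2.81e-06 and 1.29e-06). The mean of Ddx4 went from 139 to 17.5 FPKM. Piwil1 was the member that was not lower, with 1.07 and 0.659 FPKM in growing and 1.23 and 1.29 FPKM in GV oocytes (log2 fold change 0.28 ± 0.14, adjusted p = 0.108). Piwil1 passed the test without the ERCC factors (0.68, adjusted p = 0.0138) and without the first null growing library (0.44, adjusted p = 0.0377), and Tdrkh was lost without that library (−0.47, 0.0663) or the first null GV library (−0.43, 0.0683).

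The change during growth differed between the genotypes for 2 members. The difference of the 2 changes was −1.57 ± 0.30 for Ddx4 (adjusted p = 0.00888) and −1.52 ± 0.18 for Piwil2 (adjusted p = 9.39e-04) in the interaction term of limma, on the log2 scale. Over all genes 11.3% had a more negative change in the null and 2.58% a more positive one (1301 and 297 genes, and 428 and 255 without the ERCC factors). Both genes were higher in null than in WT growing oocytes. In GV oocytes Ddx4 was lower with the ERCC factors and not called without them, and Piwil2 was not called. The difference for Ddx4 passed the test without the ERCC factors (−1.42, adjusted p = 0.0124) and not with an equal median (−1.18, adjusted p = 0.0752). Piwil2 had entered the test only through null growing oocytes, and with all genes of the table tested its adjusted p was 0.00368 (limma). Without the second WT growing library Mov10 was also called (−0.92, adjusted p = 0.0421), and without the first null growing library Piwil1 (0.81, 0.0291) and Tdrd9 (−0.80, 0.0241).

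During WT maturation, from GV to MII oocytes, all 9 members tested were lower, and so were 93.4% of all genes, with 0.104% higher. The members differed in how far they fell. Mael fell by 4.77 ± 0.19 on the log2 scale, from a mean of 89.6 to 2.34 FPKM, Tdrd1 fell by 3.61 ± 0.21, from 45.7 to 2.90 FPKM, and Tdrkh fell by 3.38 ± 0.15, from 29.5 to 1.92 FPKM (adjusted p = 1.01e-09, 1.84e-08 and 2.70e-09). On this scale the change of a scarce member is smaller than its ratio of means. In ratio Piwil2 fell 28.6-fold, to few reads at MII, less than Mael (38.4-fold) and more than Tdrd1 (15.8-fold) and Tdrkh (15.4-fold). Piwil1 fell least in ratio, from 3.32 to 2.32 FPKM (−0.38 ± 0.14, adjusted p = 0.0245). Without the ERCC factors its direction turned, to 1.07 (adjusted p = 2.95e-04), and with an equal median it was 1.95. The median over all genes was −1.28 with the factors and −0.43 without them, and without them 5473 genes were lower and 2267 higher, in place of 10747 and 12. Of the members, 5 were then lower and 1 higher, while Ddx4 (−0.43, adjusted p = 0.0584), Mov10l1 (−0.33, 0.256) and Piwil2 (−0.38, 0.0850) were not called. With an equal median the values of Ddx4 and Mov10l1 turned, to 0.49 (adjusted p = 0.0721) and 0.33 (0.234). The calls of Piwil1 and Piwil2 were lost without the second WT GV library (−0.32, adjusted p = 0.101, and −0.25, 0.111), the first WT MII library (−0.35, 0.0940, and −0.31, 0.102) or the second (−0.41, 0.0581, and −0.34, 0.0794).

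In the null, 7 of the 9 members fell during maturation and 0 rose, against 68.7% of all genes lower and 0.209% higher. Unscaled FPKM gave 4656 genes lower and 2248 higher, in place of 7903 and 24. Mael fell by 1.77 ± 0.19, from a mean of 81.1 to 23.1 FPKM, while Tdrd1 fell by 2.82 ± 0.21 and Tdrkh by 3.15 ± 0.15 (log2 scale, adjusted p = 6.36e-06, 3.11e-07 and 1.50e-08). Piwil1, with 1.23 and 1.29 FPKM at GV and 1.39 and 1.41 FPKM at MII, was not called (0.09 ± 0.14, adjusted p = 0.604), and was higher without the ERCC factors (0.94, adjusted p = 9.69e-04). Mov10 (−0.48 ± 0.20, adjusted p = 0.0510) lay next to the threshold, and was called without either WT growing library or the first null GV library (adjusted p = 0.0168 to 0.0217). Mov10l1 (−0.41 ± 0.17, adjusted p = 0.0438) was lost without any of the 4 GV or the 2 null MII libraries (adjusted p = 0.0543 to 0.177).

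Mael was the member whose change during maturation differed between the genotypes, by 3.0 ± 0.27 on the log2 scale (adjusted p = 8.29e-06). A more positive change in the null was found for 33.9% of all genes and a more negative one for 0.643% (3903 and 74 genes, and 1742 and 743 without the ERCC factors). Without the ERCC factors the difference for Mael was 2.66 (adjusted p = 5.69e-06), and Tdrkh, at 0.22 with the factors (adjusted p = 0.429), turned to a more negative change in the null (−0.64, adjusted p = 0.0286, and −0.95, 0.00636, with an equal median). Mov10l1 (0.65 ± 0.23, adjusted p = 0.0501) and Tdrd1 (0.79 ± 0.29, adjusted p = 0.0569) lay next to the threshold. Both were near 0 without the ERCC factors (0.17, adjusted p = 0.796, and 0.15, 0.817) and turned with an equal median (−0.12 each, 0.825 and 0.798). With the factors, Mov10l1 was called without the second WT MII library (0.83, adjusted p = 0.0342) or any of the 4 growing libraries (adjusted p = 0.0354 to 0.0466), and Tdrd1 without the second WT MII (1.09, 0.0161) or the first null GV library (0.99, 0.0393).

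**Figure D4:**
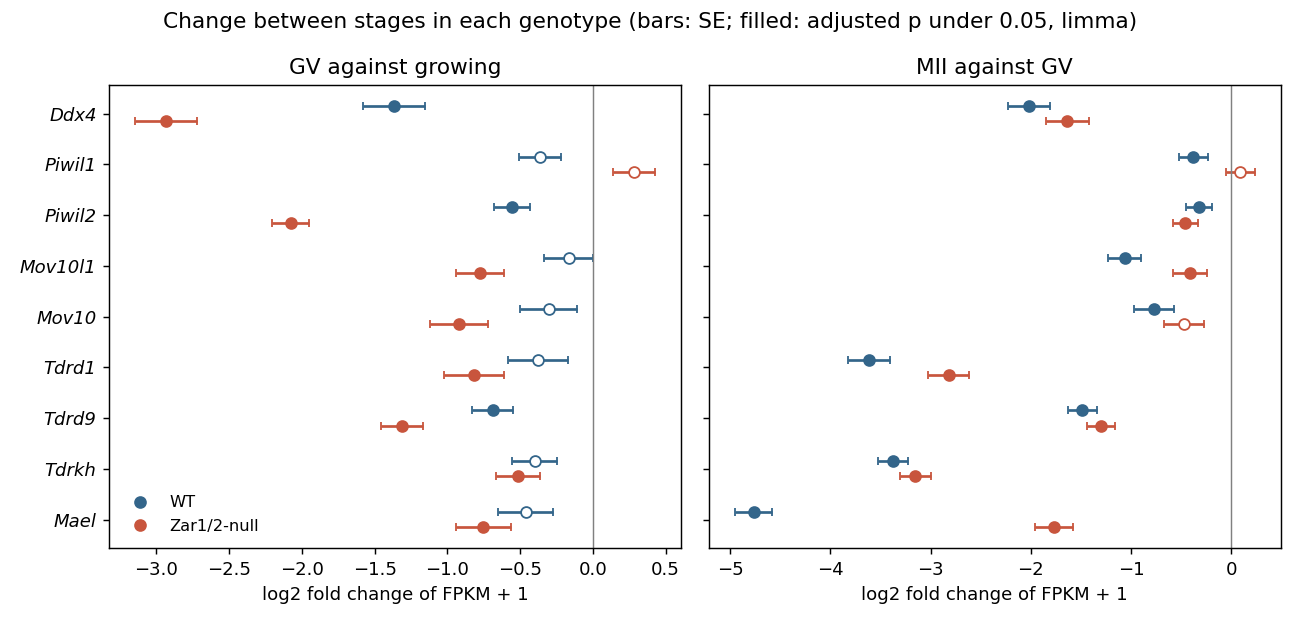
Log2 fold change of FPKM + 1 from growing to GV oocytes (left) and from GV to MII oocytes (right) for the 9 members tested, in WT and Zar1/2-null oocytes; bars are SE, and filled points passed the threshold (adjusted p under 0.05, limma). In the left panel the genotypes are farthest apart for Ddx4 (−1.37 and −2.93) and Piwil2 (−0.56 and −2.08), and in the right panel for Mael (−4.77 and −1.77).

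Other genes of the pathway were counted from a list of 22, of which 20 were in the table and 17 reached 1 FPKM. In growing oocytes 3 of the 17 were higher in the null and 2 lower, against 10.6% and 24.4% of all genes. Prmt5, the enzyme that methylates arginines of PIWI proteins, measured 2.81 and 2.72 FPKM in WT and 6.78 and 7.20 FPKM in the null (log2 fold change 1.08 ± 0.13, adjusted p = 1.16e-04, limma). Rnf17, a Tudor protein, was lower with 31.7 and 28.6 against 18.4 and 14.6 FPKM (−0.84 ± 0.18, adjusted p = 0.00409), and so was Gtsf1, a PIWI cofactor, with 1091 and 1067 against 788 and 702 FPKM (−0.54 ± 0.17, adjusted p = 0.0335). Gpat2 (1.30 ± 0.15) and Pld6 (0.66 ± 0.16), which act at mitochondria, were the others that were higher, and are named after their values were seen because they lay under 5 FPKM. With the factors divided out, 3 were higher and 1 lower, and Gtsf1 was not called (−0.25, adjusted p = 0.199).

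In GV oocytes 5 of the 17 other genes were lower and 1 was higher in the null, against 40.6% and 2.83% of all genes. Tex15, which acts in piRNA-guided silencing in male germ cells, was the gene that was higher, with 0.575 and 0.599 FPKM in WT and 13.7 and 6.93 FPKM in the null (log2 fold change 2.77 ± 0.24, adjusted p = 2.18e-05). The null libraries differed from each other but both lay above WT. Tex15 reached 1 FPKM in the null GV and null MII libraries alone, so it entered the test only through groups in which it was higher. Its p-values and its place in the counts of every comparison are conditional on that. Rnf17 measured 23.7 and 19.2 against 11.03 and 11.64 FPKM (−0.86 ± 0.18), Tdrd5 42.3 and 41.1 against 24.4 and 26.0 FPKM (−0.70 ± 0.16), Exd1 5.04 and 5.88 against 2.60 and 4.22 FPKM (−0.57 ± 0.17) and Gtsf1 1253 and 1061 against 820 and 741 FPKM (−0.56 ± 0.17). Mybl1, a transcription factor of piRNA genes, was the other gene called (−0.89 ± 0.15), and is named after its values were seen. With the factors divided out, 1 of the 17 was lower, Mybl1 (−0.69, adjusted p = 0.0238), and 2 were higher. Rnf17 (−0.44, 0.0792), Tdrd5 (−0.27, 0.317), Exd1 (−0.23, 0.527) and Gtsf1 (−0.11, 0.625) were then not called.

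In MII oocytes 7 of the 17 other genes were higher and 1 was lower in the null, against 21.5% and 10.3% of all genes, and 7 were higher and 4 lower with the factors divided out. Dnmt3l, a cofactor of DNA methylation, measured 5.15 and 9.56 FPKM in WT and 64.4 and 60.5 FPKM in the null (log2 fold change 2.98 ± 0.27, adjusted p = 5.47e-06), with both null libraries above both WT libraries. Gtsf1 measured 38.5 and 48.1 FPKM in WT and 74.7 and 60.4 FPKM in the null (0.63 ± 0.17, adjusted p = 0.0162). Tex15 (2.05 ± 0.24), Pnldc1 (1.35 ± 0.23), Prmt5 (1.18 ± 0.13), Fkbp6 (1.12 ± 0.13) and Tdrd5 (0.59 ± 0.16) were the others that were higher. They are named after their values were seen because they lay under 5 FPKM. Tex15 had entered the test only through null GV and null MII oocytes. Tdrd12, a Tudor domain helicase, was the gene that was lower, with 18.6 and 26.3 against 14.0 and 10.3 FPKM (−0.83 ± 0.21, adjusted p = 0.0107). The median log2 fold change of the 17 genes was 0.13 in MII oocytes, −0.34 in GV oocytes and −0.09 in growing oocytes, against 0.06, −0.38 and −0.16 over all genes.

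Between stages, the counts of the other genes lay near the shares of all genes in several comparisons. During WT growth 5 of the 17 fell and 0 rose (28.7% and 2.77% of all genes), and during null growth 10 fell and 1 rose (55.9% and 4.76%). During maturation 16 fell and 0 rose in WT (93.4% and 0.104%), and 13 fell and 0 rose in the null (68.7% and 0.209%). The change during growth was more negative in the null for 4 and more positive for 1 (11.3% and 2.58%), and the change during maturation was more positive in the null for 7 and more negative for 0 (33.9% and 0.643%). With the factors divided out, 0 fell or rose during WT growth, 4 fell and 2 rose during null growth, 11 fell and 1 rose during WT maturation, and 10 fell and 2 rose during null maturation. The differences between the genotypes then numbered 1 negative and 1 positive for growth, and 1 negative and 5 positive for maturation.

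**Figure D5:**
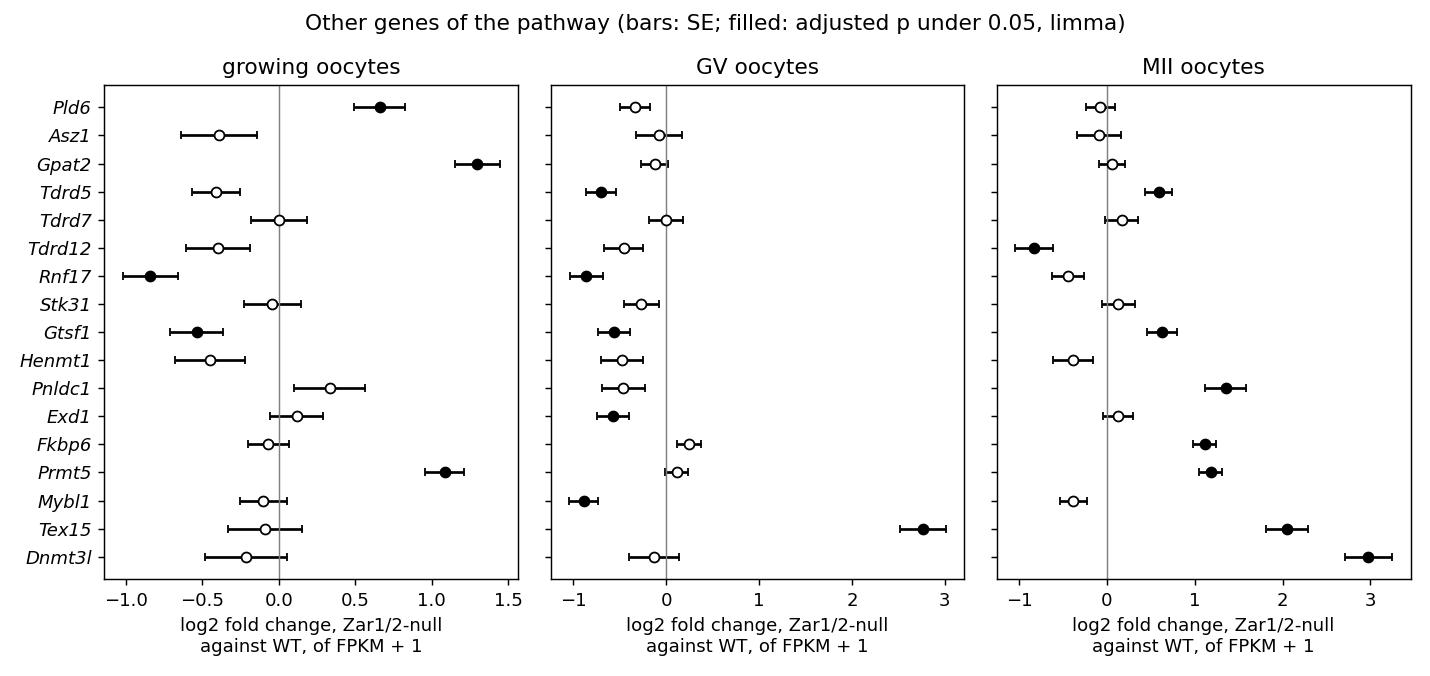
Log2 fold change of FPKM + 1 in Zar1/2-null against WT oocytes for the 17 other pathway genes tested, at each stage; bars are SE, filled points passed the threshold (adjusted p under 0.05, limma), and the x axes differ. Tex15 stands apart in GV oocytes at 2.77, and Dnmt3l in MII oocytes at 2.98.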

How the data were processed

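The authors aligned reads, trimmed to 50 bp, to mm9 using TopHat2 2.1.1, kept unique alignments and computed FPKM over UCSC gene models with Cufflinks 2.2.1. They deposited 1 table of FPKM values for 23230 genes and 12 libraries, multiplied by an ERCC factor per library. The factor was recovered from the deposited FPKM values, 100% of which return to 6 significant digits without it. Whole reads were recovered where low values were multiples of 1 read. Priming was on the poly(A) tail, so a shorter tail and less RNA cannot be told apart.

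Groups followed the sample labels. The 11502 genes that reached 1 FPKM in any library were tested on log2(FPKM + 1) using limma 3.58.1 in R 4.3.3, fitting the 12 libraries together with a coefficient for every group, eBayes with an intensity trend, Benjamini-Hochberg adjustment over all genes tested and a threshold of 0.05. An exact permutation test of 2 against 2 libraries cannot reach 0.05. The fit was tested on simulated data. Alternatives were no ERCC scaling, an equal median, a pseudocount of 0.1 FPKM, a mean of at least 5 FPKM, no filter, a replicate block, the compared groups alone, no trend, and each library left out. Named were the 10 members, the targeted genes and, of 22 other pathway genes, up to 5 per stage with the largest called change, whose higher group mean was 5 FPKM or more. Members and lists were chosen with earlier results of these data known. Henmt1, Btbd18 and Adgre1 were found under older symbols. Gene positions came from an mm9 GENCODE annotation. Proteins, promoters, RT-qPCR and imaging were not analysed here.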

Additional observations from a re-analysis of the deposited data

Results flagged for a closer look

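Knockout effects that differed between stages by the interaction term of limma are given here as values. For Ddx4 the change from growing to GV oocytes differed by −1.57 ± 0.30 on the log2 scale (null minus WT, adjusted p = 0.00888). With the ERCC factors, both null libraries lay above WT in growing oocytes and below WT in GV oocytes. Without the factors the GV libraries overlapped, and the knockout effect in GV oocytes was −0.18 (adjusted p = 0.550, limma). For Piwil2 the change from growing to GV oocytes differed by −1.52 ± 0.18 (adjusted p = 9.39e-04, limma). Piwil2 entered the test only through null growing oocytes, the group in which it was higher. For Mael the change from GV to MII oocytes differed by 3.0 ± 0.27 (adjusted p = 8.29e-06), with GV libraries that overlapped between the genotypes and MII libraries that did not. The difference passed the threshold for Piwil2 and Mael without the ERCC factors and with an equal median, and for Ddx4 without the factors only.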

How the results depend on the processing

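Of 81 member values, 43 passed the threshold. Without ERCC factors, the counts of members called became 1 lower in growing, 1 lower in GV, 1 lower in WT growth, 1 higher and 5 lower in WT maturation, 1 higher and 4 lower in null growth, 1 higher in null maturation and 1 lower in the maturation difference. With an equal median they became 1 lower in growing, 1 in GV, 4 in MII and 1 in WT growth, 1 higher and 4 lower in WT maturation, 1 higher and 3 lower in null growth, 1 higher and 4 lower in null maturation, and 1 lower in each difference between genotypes. Of all 11502 genes, 1496 were then lower in growing, 1056 in GV, 3437 in MII and 254 in WT growth. WT maturation, null growth and null maturation had 4788, 2242 and 4411 higher and 3660, 1615 and 3164 lower. The growth and maturation differences were negative for 153 and 1701 genes. A mean of at least 5 FPKM, which of the members tests Ddx4, Mael, Tdrd1 and Tdrkh alone, left 1 higher and 1 lower in growing, 3 lower in GV and 1 lower in MII. It left 1, 4, 4 and 4 lower in WT growth, WT maturation, null growth and null maturation, 1 lower in the growth and 2 higher in the maturation difference. Of the 5966 genes tested there, 313 were higher and 1369 lower in growing, 2494 lower in GV and 920 lower in MII. WT growth, WT maturation, null growth and null maturation lowered 1741, 5821, 3354 and 4562 of them. The growth difference was negative for 251 and the maturation difference positive for 2706. No filter left 3 lower in GV and 1 in MII, and the compared groups alone gave 2 higher in MII and 2 higher in the maturation difference. Over all genes, 4209 of 23230 were lower in GV and 883 in MII with no filter. With the compared groups alone, 2929 of 11502 were higher in MII and 3785 in the maturation difference. Single calls lost were Ddx4 (adjusted p = 0.117) and Tdrd1 (0.0514) in GV, Piwil1 in MII (0.0599) and Mov10l1 in null maturation (0.120) with no filter, Ddx4 in GV (0.102), Tdrd9 in growing (0.0809) and Tdrkh in null growth (0.0504) with the compared groups alone, and Piwil1 in WT maturation (0.0504) with a pseudocount of 0.1 FPKM. Directions turned without ERCC factors and with an equal median for Piwil1 in WT maturation (1.07 and 1.95), Piwil2 (−0.0029 and −0.0057) and Tdrd1 (−0.18 and −0.31) in MII, Mov10l1 in WT growth (0.11 and 0.079), Mov10 (0.086 and 0.17), Tdrd9 (0.30 and 0.41) and Mael (0.32 and 0.45) in GV and Tdrkh in null growth (0.02 and 0.22), without ERCC factors alone for Tdrd1 in WT growth (0.0052), and with an equal median alone for Ddx4 (0.49) and Mov10l1 (0.33) in WT maturation, Mov10l1 (0.22) and Mov10 (0.075) in null maturation and Mael in null growth (0.0059). Of these, only the Piwil1 values passed the threshold. Among the differences between the genotypes, both scalings turned those of maturation for Ddx4 (−0.30 and −0.57), Piwil1 (−0.13 and −0.40), Tdrd9 (−0.11 and −0.26) and Tdrkh (−0.64 and −0.95, both past the threshold) and of growth for Tdrkh (0.041 and 0.28), an equal median alone those of maturation for Mov10l1 (−0.12) and Tdrd1 (−0.12) and of growth for Mael (0.12), and a pseudocount of 0.1 FPKM that of maturation for Tdrkh (−0.044). The cause was not tested. With 1 library left out, the counts ranged from 1 to 2 lower in growing, 3 to 5 lower in GV, 0 to 2 lower in MII, 2 to 5 lower in WT growth, 0 to 1 higher in null growth, 0 to 1 higher in the growth and 1 to 3 higher in the maturation difference. Values that turned then ranged in MII from −0.46 to 0.017 (Ddx4), −0.013 to 0.018 (Piwil2) and −0.27 to 0.32 (Tdrd1), in GV from −0.33 to 0.11 (Mov10) and −0.33 to 0.063 (Mael), and in WT growth from −0.36 to 0.025 (Mov10l1) and −0.61 to 0.0035 (Mov10), and in the growth difference from −0.28 to 0.059 (Tdrkh), none of them called with all 12 libraries. Between libraries of equal replicate number, the deviations of genes correlated weakly (0.16, −0.12 and 0.09 in growing, GV and MII). Such a correlation cannot show an offset shared by a whole library, as from the ERCC factors. Leaving out 1 library also moved the median of all genes, so that calls and directions lost then are not particular to the members. The GV median went from −0.38 to −0.30 without the first WT GV library and to −0.45 without the second. A replicate block added Mov10 in growing (adjusted p = 0.0427) and in null maturation (0.0293), and gave 2 higher in the maturation difference. Over all 11502 genes, 4069 were higher in that difference with the block. Crossing the numbers in GV, an alternative chosen after seeing the data, left 5 lower. The 3-fold calls were the same under their alternatives, with the floor on each library (chosen after seeing the data) among them. Depth limits Piwil4 and, at MII, Piwil2.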
